A study of Mus musculus with 6 samples.

Results

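The genes described here are the 4 Notch receptors of the mouse (Notch1 to Notch4), 5 of their ligands (Dll1, Dll3, Dll4, Jag1 and Jag2) and Rbpj, the DNA-binding factor through which the pathway acts on its targets. They were taken by name, 10 of 21887 protein-coding genes, and all 10 were found by symbol among the RefSeq genes of GRCm38.p6, which is the assembly called mm10. Mouse sperm chromatin was digested with micrococcal nuclease (MNase), nucleosome-sized DNA was sequenced, and each library was deposited as a list of enriched regions, here called peaks. There were 4 libraries from C57BL6 wild-type mice (WT 1 to 4) and 2 from mutant mice with K49A, a substitution in protamine 1 (K49A 1 and 2). Sperm of both groups came from the epididymis and vas deferens. They went through the same DNase I, detergent, DTT (50 mM) and MNase (5 and then 15 units) steps. The sources used here do not give the age of the mice, the number of animals per library or the zygosity of the mutation. The sperm input, the same for both groups, is stated per genotype and not per library. Whether the libraries of a genotype came from separate sperm samples is therefore not known. The series design calls the libraries of a genotype biological replicates, and the tests below set the difference between genotypes against that between such libraries. A peak list holds no expression values, so the cell type could not be checked against its markers.

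Notch signalling passes between touching cells. A Delta-like or Jagged ligand on one cell pulls on a Notch receptor of its neighbour, the receptor is cut first by an ADAM protease and then by gamma-secretase, and its freed intracellular part enters the nucleus, binds RBPJ and recruits Mastermind coactivators to genes such as the Hes and Hey repressors. In the testis the pathway is known from the contact of germ cells with Sertoli cells. In sperm most histones are exchanged for protamines, and the nucleosomes that stay have been reported above all at CpG-rich gene starts, including those of developmental regulators.

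The data at these genes had 1 main feature. Peaks were found in all 4 WT lists at the starts of Notch2, Notch3, Dll1 and Rbpj, in some WT lists at those of Notch1, Jag1, Jag2 and Dll4, and in none at those of Notch4 and Dll3. Of the 17492 protein-coding genes with an annotated start, 23.2% had a start peak in all 4 WT lists and neither K49A list. A further 39.5% had one in no list. No peak of either K49A list lay in or within 1 kb of any of the 10 genes. In both K49A lists peaks at genes were so rare that this absence is near what the lists hold at genes in general, with a peak at a gene end in 0.429% of all protein-coding genes in K49A 1 and in 0.334% in K49A 2. The lists held 11313 to 27903 peaks in WT and 700 and 1017 in K49A. Their total read depth is unknown.

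The sequences at 5 of the starts are shown because they span the range of the data, from a start outside the peak (Notch1) to starts in part or whole inside it (Notch2, Notch3 and Jag1) and a start with no peak (Notch4). Each runs from 250 bases before the annotated start to 30 bases from the start on, 5′ to 3′ in the direction of transcription, from the RefSeq promoter table for GRCm38.p6. Capitals mark the bases that were under a peak in at least 2 of the 4 WT lists. The windows are chr2:26503793-26504072 (minus strand) for Notch1, chr3:98013288-98013567 (plus strand) for Notch2, chr17:32166861-32167140 (minus strand) for Notch3, chr17:34564045-34564324 (plus strand) for Notch4 and chr2:137116491-137116770 (minus strand) for Jag1.
Notch1: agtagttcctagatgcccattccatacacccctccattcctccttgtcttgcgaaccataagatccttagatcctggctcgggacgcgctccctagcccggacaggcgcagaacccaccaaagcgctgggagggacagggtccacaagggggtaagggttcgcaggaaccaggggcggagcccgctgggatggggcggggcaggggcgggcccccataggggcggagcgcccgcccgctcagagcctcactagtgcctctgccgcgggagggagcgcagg
Notch2: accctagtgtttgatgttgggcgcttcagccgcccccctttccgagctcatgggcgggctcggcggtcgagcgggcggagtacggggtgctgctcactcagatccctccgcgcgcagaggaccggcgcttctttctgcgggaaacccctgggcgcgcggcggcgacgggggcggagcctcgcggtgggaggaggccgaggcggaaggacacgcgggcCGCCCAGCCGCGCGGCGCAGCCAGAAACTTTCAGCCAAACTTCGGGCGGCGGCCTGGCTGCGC
Notch3: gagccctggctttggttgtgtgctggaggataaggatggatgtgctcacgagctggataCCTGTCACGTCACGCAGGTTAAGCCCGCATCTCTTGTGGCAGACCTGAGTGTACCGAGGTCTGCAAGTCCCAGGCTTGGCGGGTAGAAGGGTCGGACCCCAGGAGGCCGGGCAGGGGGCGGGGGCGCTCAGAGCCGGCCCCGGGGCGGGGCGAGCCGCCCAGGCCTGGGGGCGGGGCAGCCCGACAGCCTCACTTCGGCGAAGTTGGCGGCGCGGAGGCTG
Notch4: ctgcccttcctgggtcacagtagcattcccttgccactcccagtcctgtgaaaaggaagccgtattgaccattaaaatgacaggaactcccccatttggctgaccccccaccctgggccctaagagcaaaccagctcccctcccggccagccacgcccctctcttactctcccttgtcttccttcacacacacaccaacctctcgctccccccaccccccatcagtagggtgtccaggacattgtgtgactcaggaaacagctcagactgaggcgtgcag
Jag1: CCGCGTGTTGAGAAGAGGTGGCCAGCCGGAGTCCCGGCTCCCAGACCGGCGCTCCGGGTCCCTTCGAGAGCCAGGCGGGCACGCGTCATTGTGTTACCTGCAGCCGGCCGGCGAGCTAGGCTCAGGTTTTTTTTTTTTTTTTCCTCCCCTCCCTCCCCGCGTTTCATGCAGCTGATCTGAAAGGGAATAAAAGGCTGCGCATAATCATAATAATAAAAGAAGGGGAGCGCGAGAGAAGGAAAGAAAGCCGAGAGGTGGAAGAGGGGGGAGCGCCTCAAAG
By this rule 0 of 280 bases were in capitals at Notch1, 63 at Notch2, 221 at Notch3, 0 at Notch4 and all 280 at Jag1. The letters of Notch4 hold few CpG dinucleotides beside those of the other 4.

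The genomic span covered by peaks was taken as 1 value per gene and library, counting the bases under a peak in the gene and 1 kb around it. Notch1 (chromosome 2, 26457902 to 26503822, minus strand), a receptor needed for T cell and vessel development, had 2258, 1635, 1797 and 1406 bp under a peak in WT 1 to 4 and 0 bp in both K49A libraries. All 4 WT values were high, and the groups did not overlap. The mean was 1774 ± 360 bp (SD, n = 4) in WT, and the difference of 1774 bp gave a two-sided exact permutation p of 0.133. This is 2 times the one-sided 0.0667 and the smallest that the test can give when defined in that way. After Benjamini-Hochberg adjustment over all 21887 genes it was 0.457, and no gene could reach a p of 0.05 by this test.

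**Figure D1:**
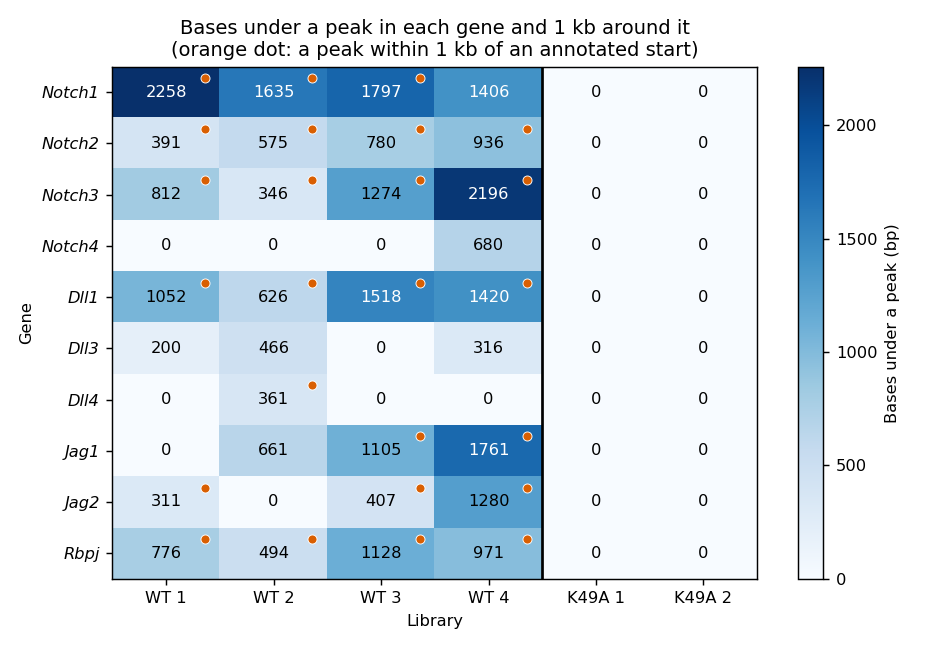
Bases under a peak (bp) in each of the 10 genes with 1 kb on both sides, by library. Numbers in the cells are the values, and an orange dot marks a library with a peak within 1 kb of an annotated start. Both K49A columns are 0 throughout, and Notch1 has the highest value in WT 1 (2258 bp).

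The other receptors differed from one another. Notch2 (chromosome 3, 98013538 to 98150367, plus strand), known for its role in marginal zone B cells and in bone and kidney, had 391, 575, 780 and 936 bp under a peak in WT 1 to 4. Notch3 (chromosome 17, 32120820 to 32166896, minus strand), the receptor of vascular smooth muscle, had 812, 346, 1274 and 2196 bp. Both were above 0 in every WT library and at 0 in both K49A libraries, so their groups did not overlap, with means of 671 ± 238 and 1157 ± 790 bp (SD, n = 4 each). Notch4 (chromosome 17, 34564286 to 34588543, plus strand), which is expressed mainly in endothelium, had 680 bp in WT 4 and 0 bp in WT 1, 2 and 3. Only 1 WT library therefore stood above the K49A libraries at Notch4.

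Among the ligands, Dll1 alone was covered in all 4 WT libraries. Dll1 (chromosome 17, 15367354 to 15376932, minus strand), a Delta-like ligand that acts in somite and neuron formation, had 1052, 626, 1518 and 1420 bp under a peak in WT 1 to 4 (1154 ± 405 bp, SD, n = 4). Jag1 (chromosome 2, 137081451 to 137116520, minus strand), a Jagged ligand whose human counterpart is mutated in Alagille syndrome, had 0, 661, 1105 and 1761 bp. Jag2 (chromosome 12, 112907803 to 112929812, minus strand), which acts in limb and palate development, had 311, 0, 407 and 1280 bp. For Jag1 the value of 0 was in WT 1, and for Jag2 it was in WT 2, so in each case 1 WT library overlapped the K49A libraries.

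The remaining Delta-like ligands had little coverage. Dll3 (chromosome 7, 28293555 to 28301785, minus strand), a divergent ligand needed for somite segmentation, had 200, 466, 0 and 316 bp under a peak in WT 1 to 4. Dll4 (chromosome 2, 119325784 to 119335666, plus strand), the ligand of sprouting vessels, had 361 bp in WT 2 and 0 bp in WT 1, 3 and 4. Both overlapped the K49A values of 0 bp.

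Rbpj (chromosome 5, 53555779 to 53657445, plus strand) had 776, 494, 1128 and 971 bp under a peak in WT 1 to 4 (842 ± 273 bp, SD, n = 4), all above the K49A values of 0. In all, the groups did not overlap at 5 of the 10 genes (Notch1, Notch2, Notch3, Dll1 and Rbpj), with WT higher each time, beside 29.2% of all 21887 genes. K49A was higher without overlap at 0 of the 10, beside 0.0183%. At each of these 5 the exact permutation p was 0.133 and the adjusted p 0.457. Jag1, Jag2 and Dll3 had an exact permutation p of 0.4 (adjusted 0.858), and Notch4 and Dll4 had a p of 1. The smallest adjusted p over all genes was the same 0.457, so none of the 21887 genes passed 0.05 by this test.

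Counted by gene, 5, 5, 6 and 6 of the 10 genes had a peak within 1 kb of a gene end in WT 1 to 4, or 5.5 ± 0.577 (SD, n = 4). Of all protein-coding genes, 28.8%, 43%, 46.3% and 49.9% had one in the same lists. In K49A 1 and 2 the number was 0 of 10 in both, where the shares over all genes given above correspond to 0.0429 and 0.0334 of 10 genes. With the gene body included, 7, 8, 7 and 9 of the 10 genes had a peak in WT 1 to 4, beside 36.2%, 52.6%, 55.7% and 60.4% of all genes. The K49A number was again 0, beside 1.25% and 1.58%. At gene ends the WT shares over all genes correspond to 2.88, 4.30, 4.63 and 4.99 of 10 genes in WT 1 to 4. The WT counts were above these, by little in WT 2 to 4, and the counts with the body also grow with gene length. Whether the 10 genes differ from other genes in these counts was not tested. The K49A counts could not have been lower.

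Gene length matters for the counts that include the body, since the 10 genes range from 8.23 kb (Dll3) to 137 kb (Notch2). Per 100 kb of gene with its 1 kb margins, there were 1.96, 2.61, 2.39 and 3.48 peaks at the 10 genes in WT 1 to 4. All protein-coding genes together had 0.795, 1.32, 1.44 and 1.76 peaks per 100 kb in the same lists, lower in each of the 4 libraries. In K49A 1 and 2 the density over all genes was 0.0273 and 0.037 peaks per 100 kb. At that density the 460 kb of the 10 genes would hold 0.126 and 0.17 peaks, and 0 were found. The nearest K49A peak to any of the genes was 103 kb from Notch3 in K49A 2 and 417 kb from Notch2 in K49A 1. The median distance over the 10 genes was 2729 kb in K49A 1 and 1011 kb in K49A 2.

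The peaks themselves had folds near those of their lists. Their median fold was 3.43, 2.79, 2.92 and 2.68 in WT 1 to 4, beside 3.16, 2.93, 2.94 and 2.85 over all peaks. The 48 WT peaks in or within 1 kb of the 10 genes had a median fold enrichment of 2.86, from 2.17 to 4.44, and a median width of 464 bp, from 200 to 1797 bp. The background over which the fold was taken is not given. These folds, p-values and q-values are the authors' own for each peak, and they describe a peak within its list. Of the 48 peaks, 25 (52.1%) had a −log10 p of at least 4.73, the lowest found in the K49A 1 list, and so would have passed there with the same p. The share was 53.8% of all 81911 WT peaks. By library it was 66.7%, 33.3%, 54.5% and 56.2% at the 10 genes in WT 1 to 4, beside 62.3%, 52%, 55.2% and 50.6% of all peaks, with the widest gap in WT 2.

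Pooled over the 4 WT lists, most of the peaks lay at annotated starts. Of the 48 peaks, 30 (62.5%) were within 1 kb of a start in the RefSeq promoter table, 2 were within 1 kb of the finish of a gene, and 16 were at neither. By library 7 of 9, 7 of 12, 9 of 11 and 7 of 16 peaks in WT 1 to 4 were at a start. In WT 4 most peaks therefore lay elsewhere. The peaks at starts had a median width of 631 bp and those elsewhere 326 bp, with median folds of 2.92 and 2.68. In rank within their own list by −log10 q, peaks at starts had a median percentile of 63.1 and those elsewhere of 27. Merging the 4 WT lists gave 25 regions at the 10 genes. A region counted as at a start if any of its peaks did. The WT 4 peak after the Notch1 start and the WT 2 peak before the Rbpj starts were thus elsewhere as peaks but in start regions. Of the 10 regions at a start, 6 were called in all 4 WT lists, whereas of the 15 others none was called in more than 2 lists and 14 were called in 1. Merging at all protein-coding genes gave 27339 regions, of which 20.5% were in every WT list and 50.3% in 1, where at the 10 genes the shares were 24% and 60%. The splits by start, of peaks and of regions, were not set beside all protein-coding genes. Whether they are particular to these 10 genes was not tested.

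**Figure D2:**
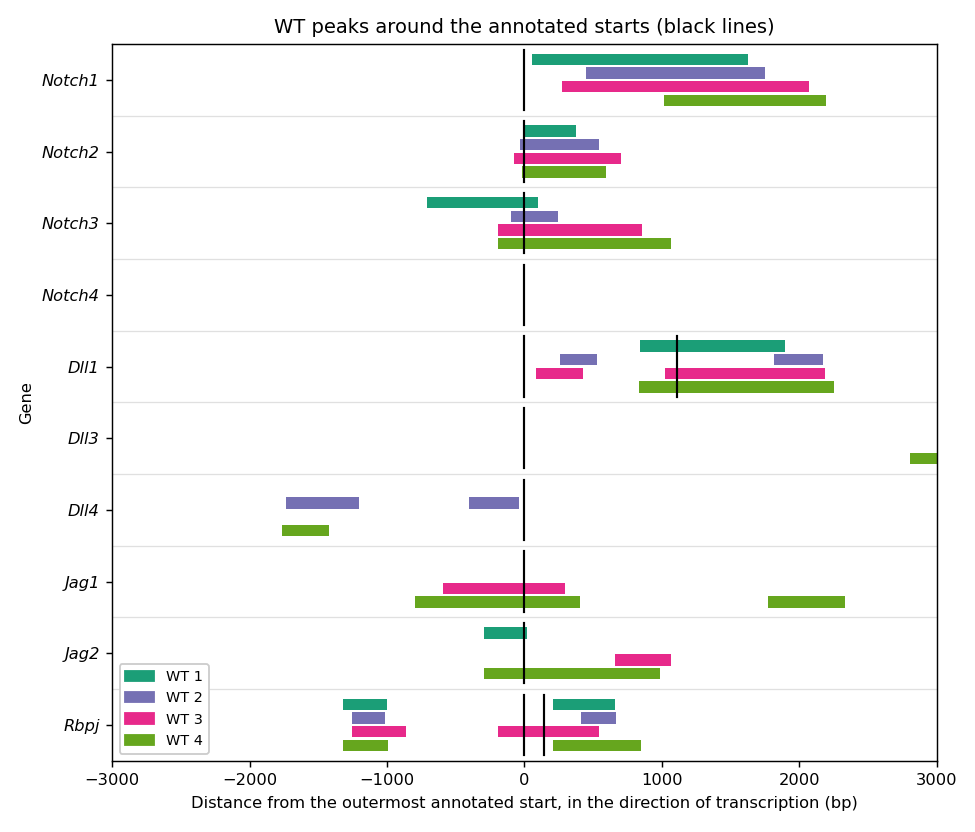
Peaks of the 4 WT lists within 3 kb of the outermost annotated start of each gene, with distance in bp in the direction of transcription. Each bar is 1 peak, coloured by library, and black lines mark annotated starts (2 for Dll1 and Rbpj). Bars at Notch1 lie after the start, those at Notch2 and Notch3 cross it, and Rbpj has in all 4 libraries 1 bar before its starts and another that lies after them or, in WT 3, across them.

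At Notch2 the peak sat on the start in all 4 WT libraries. It began 13, 33, 78 and 16 bases before the start in WT 1 to 4 and ended 377, 541, 701 and 596 bases after it, as the capitals at the end of the printed sequence show. The folds were 3.43, 2.80, 3.15 and 3.05, or 3.11 ± 0.262 (SD, n = 4). The bases common to all 4 peaks ran from 98013525 to 98013915 (391 bp), which includes the start itself.

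At Notch3 the peaks also crossed the start, with less common borders. They began 713, 99, 190 and 191 bases before the start in WT 1 to 4 and ended 98, 246, 857 and 1069 bases after it. The peak of WT 1 therefore lay mainly before the start and those of WT 3 and WT 4 mainly after it, and 198 bp were common to all 4. The folds were 3.56, 3.36, 3.16 and 2.85, or 3.23 ± 0.305 (SD, n = 4). WT 3 and WT 4 shared a second region inside the gene (32143145 to 32143610), 23280 bases or more after the start, with folds of 3.12 and 2.77.

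At Notch1 every peak near the start lay after it. The peaks began 56, 448, 272 and 1013 bases after the start in WT 1 to 4 and ended between 1627 and 2195 bases after it, which is why the printed Notch1 sequence has no capitals. With widths of 1183 to 1797 bp, this was on average the widest region at any of the 10 genes (1465 ± 275 bp, SD, n = 4). The folds were 3.43, 3.05, 2.92 and 2.56 (2.99 ± 0.361, SD, n = 4). The WT 4 peak began just past the 1 kb limit, so Notch1 counted as having a start peak in 3 WT lists although all 4 held the region. WT 2 also had a peak at the other end of Notch1 (26457452 to 26457779, fold 3.04), where the long non-coding RNA gene 0610009E02Rik overlaps it.

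Notch4 had no peak within 1 kb of its start in any library. Its 2 peaks, both in WT 4, lay 4152 bases after the start (fold 2.63) and near the finish (34587238 to 34587717, fold 2.66). A region called in all 4 WT lists was 2788 to 3465 bases beyond the finish of Notch4, between or within its neighbours Gpsm3 and Pbx2, and so belongs to no window of Notch4.

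Dll1 has 2 annotated starts, at 15376932 and 15375823. The second was inside a peak in WT 1, WT 3 and WT 4, and the WT 2 peak began 707 bases after it. The folds of these peaks were 2.87, 2.48, 2.45 and 2.55 in WT 1 to 4 (2.59 ± 0.195, SD, n = 4). After the first start a smaller peak was called in WT 2 (fold 2.27) and WT 3 (fold 2.17). The 80 bp common to all 4 lists lay after the second start. Another region, 3713 to 3808 bases before the first start, was called in WT 2 and WT 3 and is outside the 1 kb window.

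Jag1 had a peak across its start in WT 3 and WT 4, with a fold of 2.69 in both and borders 590 and 796 bases before and 293 and 403 bases after the start. The whole printed Jag1 sequence lies inside both. WT 1 and WT 2 had none there. Jag2 had a peak within 1 kb of its start in WT 1 (fold 3.12), WT 3 (3.31) and WT 4 (2.74). The peaks of WT 1 and WT 4 shared the same upstream border (112929787), 292 bases before the start, and that of WT 3 began 659 bases after the start, so that no base was common to all 3.

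Dll4 had a peak before its start in WT 2 only (119325382 to 119325742, fold 2.26), which lies inside the long non-coding RNA gene Gm14207. A region called in all 4 WT lists lay 2015 to 2177 bases beyond the finish of Dll4, just outside the window, with folds of 3.49, 4.0, 3.69 and 3.51 in WT 1 to 4, each above the 2.26 found inside it. Dll3 had 3 peaks, each in a different WT list, between 2804 and 6806 bases after its start, with folds of 2.85, 2.57 and 2.33. None overlapped another, and none was at an end of the gene.

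At Rbpj the annotated ends of the gene gave no peak, and the annotated starts did. The gene table begins Rbpj at 53555779, while both starts in the promoter table, 53590346 and 53590486, are inside the gene, the first of them 34567 bases further on. At or after them all 4 WT libraries had a peak, which in WT 3 crossed both starts and in WT 1, 2 and 4 lay after them, with folds of 3.89, 2.78, 2.91 and 4.44 in WT 1 to 4 (3.51 ± 0.798, SD, n = 4). The WT 4 peak (53590550 to 53591197) had the highest fold and the highest −log10 q (9.14) of the 48. About 1 kb before the starts a narrow region was also called in all 4 lists, with folds of 3.44, 3.06, 3.39 and 2.91 (3.20 ± 0.257, SD, n = 4) and 236 bp in common. Rbpj was thus missed in all 4 WT libraries by the count at gene ends and found in all 4 by the count at annotated starts.

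By annotated start, 6, 6, 7 and 6 of the 10 genes had a peak within 1 kb in WT 1 to 4, beside 30.1%, 44.1%, 47.2% and 50.7% of the 17492 protein-coding genes with a start in the table. In K49A the number was 0 of 10 in both lists, beside 0.32% and 0.252%. Starts called in every WT list and in no K49A list belonged to 4 of the 10 genes (Notch2, Notch3, Dll1 and Rbpj), beside 23.2% of the 17492 genes. At gene ends the same count was 3 of 10 (Notch2, Notch3 and Dll1), beside 21.8% of all genes, and with the body it was 5 of 10 (also Notch1 and Rbpj), beside 28%. Genes without a start peak in any list were 2 of 10 (Notch4 and Dll3), beside 39.5%. At gene ends they were 2 of 10 (Dll3 and Rbpj), beside 40.1%, and with the body 0 of 10, beside 29.8%. At least 1 K49A list had a start peak at 0.475% of the 17492 genes and a peak in the gene or within 1 kb at 2.32% of all genes, and in both cases at 0 of the 10.

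Peaks at starts lay more often after the start than before it, at these genes and elsewhere. Of the 30 peaks at starts of the 10 genes, 22 (73.3%) had their midpoint after the nearest start. They fell into 10 wholly after it, 16 across it and 4 wholly before it. Over all protein-coding genes the midpoint was after the start for 73%, 69.1%, 70% and 73.4% of start peaks in WT 1 to 4, so the 10 genes did not stand apart in this respect.

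The number of CpG dinucleotides in the 300 bases at a start ranged widely among the 10 genes. It was 5 at Notch4 and 11 at Dll3, the genes with no start peak, and 17 at Dll4, with a start peak in 1 WT list. Jag1 had 22 (2 WT lists within 1 kb), Notch1 23 (3 lists) and Notch3 25 (4 lists). The starts of Dll1 had 15 and 24 and those of Rbpj 26 and 28, all with a peak in 4 WT lists. Notch2 had 41 CpG (4 lists) and Jag2 had 63 (3 lists). Starts with 2 or fewer WT lists thus had at most 22 CpG, and those with 3 or 4 lists had at least 15.

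**Figure D3:**
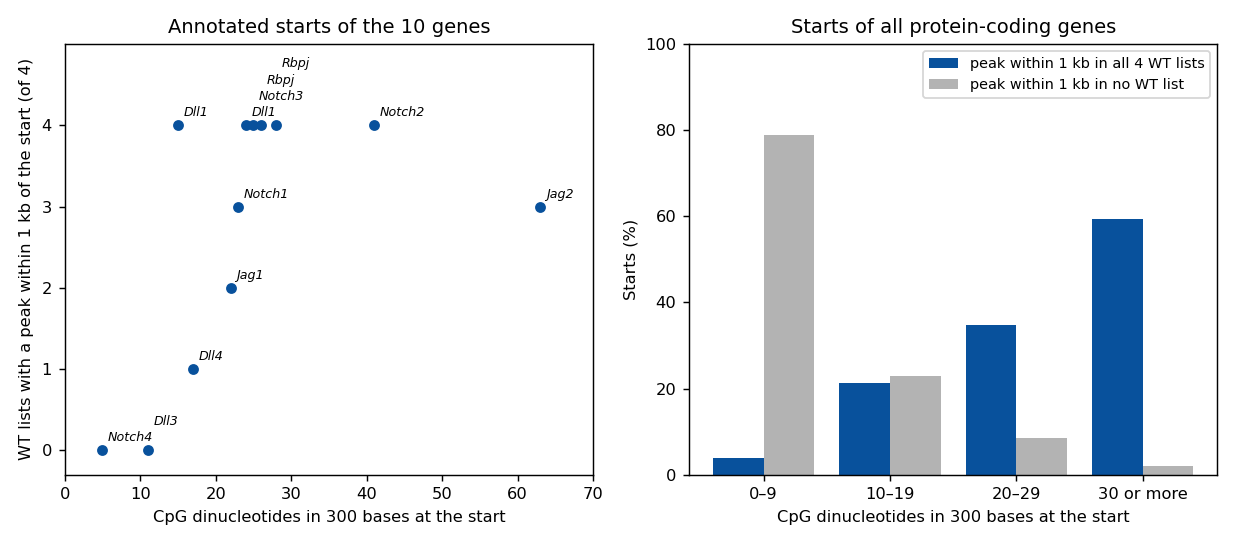
Left, CpG dinucleotides in the 300 bases at each annotated start of the 10 genes (12 starts) against the number of WT lists with a peak within 1 kb. Right, percent of all 21263 starts in the RefSeq promoter table with a peak in all 4 or in no WT list, by CpG number. Notch4 and Dll3, with 5 and 11 CpG, are at 0 lists.

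Over all 21263 starts in the RefSeq promoter table the same count went with the WT peaks. A peak in all 4 WT lists was within 1 kb of 3.89% of starts with 0 to 9 CpG, 21.4% with 10 to 19, 34.8% with 20 to 29 and 59.4% with 30 or more. No WT list had a peak at 78.9%, 23%, 8.49% and 2.04% of them. In K49A the measure was a peak in at least 1 of the 2 lists, unlike the WT measures. The share was 0.424%, 0.339%, 0.459% and 0.457% in the same classes, on 39, 15, 20 and 15 starts, with no such order. Whether the K49A lists differ from WT in this respect was not tested. The classes differ in G and C content as well, and the part of base composition in the calls was not tested.

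The core letters bound by RBPJ, TGGGAA, were looked for on both strands of the 300 bases at each start. They were present at both starts of Rbpj itself, whose windows overlap, and at 0 of the other 10 starts. Of all 21263 starts, 24.5% hold them. The longer form TGGGAAA, which contains the first motif, was again present at both Rbpj starts and in 7.78% of all. A match of letters is not a bound site.

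Other genes of the pathway were taken from a list of 50, all matched by symbol, and counted at gene ends. In WT 1 to 4, 23, 38, 37 and 40 of the 50 had a peak, or 46%, 76%, 74% and 80%, each above the share of all genes in that list. None had one in either K49A list, beside 0.626% of all genes with a peak in at least 1. In all 4 WT and neither K49A list there were 17 of 50 (34%), beside 21.8% of all genes. WT 1, the shortest of the WT lists, had the lowest count, and WT 4, the longest, the highest.

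Among the genes that prepare receptors and ligands, Pofut1, which adds O-fucose to Notch, had a peak in all 4 WT lists (fold 3.02 ± 0.157, SD, n = 4), and so did Rfng, one of the Fringe glycosyltransferases (3.10 ± 0.263). Mfng, another Fringe gene, had none. Of 4 ubiquitin ligase genes that drive ligand endocytosis, 3 had a peak in all 4 WT lists, namely Mib1 (3.39 ± 0.403), Neurl1b (3.35 ± 0.369) and Neurl1a (3.02 ± 0.372; SD, n = 4 each). Of 10 cleavage genes only Adam10, the protease of the first cut at the cell surface, had a peak in all 4 (3.39 ± 0.453), and Furin and Aph1b had none. The cleavage genes had the lowest share of the 8 role groups in WT, 45 ± 23.8% (SD, n = 4), and the ligand endocytosis genes the highest, 93.8 ± 12.5%, on 10 and 4 genes. By list the cleavage share was 10%, 50%, 60% and 60% in WT 1 to 4, beside 28.8%, 43%, 46.3% and 49.9% of all genes. For calls in all 4 WT lists and neither K49A list the share of all genes was 21.8%, here and for the roles below.

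In the nucleus, the histone acetyltransferase genes Kat2b (3.27 ± 0.441) and Ep300 (2.86 ± 0.211) were the coactivators with a peak in all 4 WT lists, 2 of 6, and Spen (3.32 ± 0.345) was the 1 of 7 corepressor genes. Of 8 genes for receptor turnover and inhibition, Dtx4 (3.56 ± 0.355), Fbxw7 (3.37 ± 0.464) and Dtx1 (2.82 ± 0.0518) were called in all 4, and Dtx3 in none. Fbxw7 encodes the subunit of a ubiquitin ligase that recognises the intracellular part of Notch. Of the 6 target genes, Heyl (3.41 ± 0.365), Hes5 (2.78 ± 0.0507) and Nrarp (2.71 ± 0.181) were called in all 4 WT lists, while Hes1 was called in WT 2 and WT 3, with folds of 2.42 and 2.10. Of the non-canonical ligands and paralogs, Dlk2 (3.11 ± 0.351) and Dner (3.08 ± 0.28) were called in all 4 (fold, SD, n = 4 for each). In each role group the share of genes with a peak at an end in K49A was 0. Over all genes it was 0.429% in K49A 1 and 0.334% in K49A 2. With 4 to 10 genes per group, 0 is near what these lists hold at genes in general.

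Genes expressed in spermatids and in cells that could accompany sperm were looked at in the same way. No list had a peak at either end of any of 6 spermatid genes, among them Prm1 itself. Of 6 genes of the epididymal epithelium 1 was called in all 4 WT lists, and of 6 leukocyte genes 2 were, with none in K49A. The background over all 21887 genes was 21.8% called in every WT list and neither K49A list, 40.1% called in no list and 0.626% called in a K49A list. What these peaks say of the cells in the samples was not tested.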

How the data were processed

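MNase-seq libraries from mouse sperm were grouped by genotype and numbered from the sample titles. Per the labels' protocols, chromatin was digested with 5 and then 15 units of MNase and mononucleosome DNA was cut from a gel. The submitters' processing notes name MACS2, BWA, SAMtools, Picard and FastQC and the build mm10, and the files hold 1 list per library. Their versions and settings, an input control and the removal of duplicates are not given. Each peak of the deposited lists has a fold enrichment (ratio) and the −log10 of its p and of its q. The lists also hold a whole-number score, which the authors' files set to the integer part of 10 times −log10 q in at least 99.8% of peaks and which was not used further.

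A peak was counted if at least 1 bp lay within 1 kb of a gene end, within 1 kb of a RefSeq start, or in the gene. Covered length was compared by an exact permutation test, two-sided, of the 15 ways to divide the libraries into 4 and 2 (2 times the smaller tail), with Benjamini-Hochberg adjustment over 21887 genes (Python 3.11.15, numpy 2.4.6, pandas 2.3.3), and the code was tested on simulated data. Counts of genes and peak folds were described without a test. The gene table has no exons. Named pathway genes were those with a peak in all 4 WT lists (up to 4 per role by mean fold) or in a K49A list. Mfng, Furin, Aph1b, Dtx3 and Hes1 fall outside that rule and were named after their values were seen. For the gene with the highest mean WT fold at an end, the 3 genes nearest in their 6 folds were named. The 10 genes, the lists and the alternatives were chosen with earlier results of these data known. Alternatives were other p and q limits, lists of equal length, other windows and overlap rules, leaving out each library, and pairing by replicate number or file name.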

Additional observations from a re-analysis of the deposited data

Results flagged for a closer look

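With 4 WT libraries, 30 sets of values were examined for a library far from the other 3, and 10 were marked. Chance marks about 1 in 20, but a set in which 3 libraries hold the same value is marked whenever the other library differs. All 10 marked sets are of this kind. In covered length they were Notch4, with 680 bp in WT 4 and 0 in the others, and Dll4, with 361 bp in WT 2 and 0 in the others. In the number of peaks in the gene and 1 kb around it, WT 4 was highest at Notch2 (2 against 1) and at Notch4 (2 against 0), and WT 2 at Dll4 (1 against 0). The lowest were WT 3 at Notch1 (1 against 2) and at Dll3 (0 against 1), WT 1 at Jag1 (0 against 2) and WT 2 at Jag2 (0 against 1). WT 3 had 7 of the 10 genes with a peak at an annotated start, and each of the others had 6.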

How the results depend on the processing

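The number of the 10 genes with a peak at a gene end was 5.5 higher in WT than in K49A, 7.75 with the gene body, and the groups did not overlap in covered length at 5 genes. With a −log10 p of at least 5 these values were 3.25, 4.25 and 2. With the 700 strongest peaks of every list they were 0, 0.25 and 0, since those lists hold almost no peak at these genes in either genotype. With a −log10 q of at least 2 the third value was 3, and it was also 3 with a −log10 p of at least 4.73, an alternative chosen after seeing the data. The first was 2.5 with a window of 0 bp and 8.5 with one of 5 kb, where the third was 8. Leaving out 1 library gave 5.33 to 5.67, 7.33 to 8 and 5 to 6. A replicate block on the numbers 1 and 2 gave 5, 7.5 and 6. File names pair WT 4 rather than WT 2 with K49A 2, and a replicate block by file names, chosen after seeing the data, gave 5.5, 8 and 7. Neither source settles the pairing. Deviations from the group means correlated at 0.14 for WT 1 with K49A 1, -0.0208 for WT 2 with K49A 2 and 0.227 for WT 4 with K49A 2 over 507 genes, and no label says that a number marks a shared batch, so no pairing was used. The other alternatives stayed within 1.5 times. Of 150 differences in covered length of single genes under an alternative, 126 moved by less than 1 SD of the WT libraries, 24 moved further and 0 changed sign. With 0 bp in both K49A libraries, no difference could change sign, and leaving out a K49A library could change nothing. In 21 of the 150 the difference became 0, and 11 of these are among the 126. No K49A peak entered any window under the alternatives run. The permutation test used could not reach a p of 0.05 with 4 and 2 libraries, and without read counts a weak region in K49A cannot be told apart from none.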

Other observations

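Notch3 had the highest mean WT fold at a gene end of the 10 genes. The 3 protein-coding genes closest to it in the 6 best folds at a gene end, by Euclidean distance with 0 for no peak, were Ppp2r5d (distance 0.092), a regulatory subunit gene of protein phosphatase 2A, Arhgap20 (0.107) and Cyld (0.152), a deubiquitinase gene. The folds of Ppp2r5d in WT 1 to 4 were 3.55, 3.44, 3.19 and 2.85, beside 3.56, 3.36, 3.16 and 2.85 at Notch3. At the ends of these 4 genes the K49A lists held no peak. The 3 genes were picked by these 6 folds, so their closeness in WT and the absence in K49A follow from the choice. The likeness is over 6 libraries and is a description.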
